A study of Mus musculus with 4 samples.

Results

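The genes described here are 38 genes that act at the start of the cell cycle's S phase, when DNA is copied, measured by RNA sequencing in mouse lung tumours. They were taken by symbol from a list of genes known to act in origin licensing, at the replication fork, in nucleotide supply and at the G1/S transition, and are 38 of the 24391 genes that each sample's count file lists. All 38 were listed, and all 38 passed the filter on low counts, with between 32 and 2925 reads per gene and sample. Both groups of tumours carried K-Ras LSL-G12D, a mutant K-Ras allele that stays silent behind a lox-stop-lox cassette until Cre recombinase removes it. The K-Ras group (2 samples) carried this allele alone. The K-Ras Mll4-/- group (2 samples) also carried Mll4 fl/fl, floxed alleles of Mll4 (now Kmt2d), which encodes a histone H3 lysine 4 methyltransferase of enhancers. How Cre was delivered, the age, sex and strain of the mice, and whether a sample held tumours of 1 animal or several are not given in the sources used here. The dissected tumours were digested, red blood cells were lysed and leukocytes bearing CD45 were depleted before RNA extraction, so the remaining tumour, stromal and lung cells were measured together.

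Copying the genome proceeds in stages. In G1, the origin recognition complex, with CDC6 and CDT1, loads the MCM helicase onto origins, which licenses them for a single round of copying. In S phase, CDC45 and the GINS complex turn the loaded MCM ring into an active helicase, polymerases copy both strands behind it, and the sliding clamp PCNA, its loader RFC, FEN1 and ligase I complete the lagging strand. Many of these genes are transcribed late in G1 under E2F transcription factors, which the RB protein holds back until cyclin-dependent kinases phosphorylate it. Because their mRNAs are made mainly in dividing cells, they are widely read as markers of the dividing part of a tissue.

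The samples held 26683033 to 36677987 reads assigned to genes. A level of 3 reads, taken as a floor for reading values and not as the filter, was at most 0.112 counts per 1e6 reads before scaling. Values in CPM are counts per 1e6 reads, with library sizes scaled by TMM. Kmt2d, the targeted gene, was at 395 and 526 CPM in the K-Ras samples and 367 and 317 CPM in the K-Ras Mll4-/- samples. The log2 fold change of -0.43 (SE 0.21) missed the threshold in the quasi-likelihood test of edgeR (adjusted p = 0.302). These gene totals cannot show the loss of single exons, so the deletion is taken from the labels. The lung epithelial markers Sftpc, Epcam and Nkx2-1 were expressed in all 4 samples. In bulk tissue, fewer cells of a type and less RNA per cell cannot be told apart. The labels do not say that the 2 samples of a group came from separate animals, so p-values measure only the spread between these samples.

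Most of the 38 genes were more abundant in the K-Ras Mll4-/- tumours, by a modest factor, but none passed the main test, edgeR's quasi-likelihood test. Their median log2 fold change (K-Ras Mll4-/- minus K-Ras, n = 2 per group) was 0.48, a factor of 1.39, against -0.01 for all 16001 tested genes. Positive values were found for 36 of the 38, against 48.8% of all tested genes. In 27 of the 38, both K-Ras Mll4-/- samples lay above both K-Ras samples, which 29.9% of all tested genes also did. In 1 of the 38, Rfc2, both lay below, against 28.5% of all tested genes, and in 10 the groups overlapped. The summed expression of the 38 was 590 and 515 CPM in the K-Ras samples and 756 and 799 CPM in the K-Ras Mll4-/- samples, so the sums did not overlap.

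The edgeR quasi-likelihood test called 0 of the 38 genes higher and 0 lower at an adjusted p under 0.05, the adjustment running over all tested genes. It called 0.0375% of all tested genes higher and 0% lower. At an unadjusted p under 0.05, 15 of the 38 were higher and 0 lower, against 11.4% and 10.4% of all tested genes. Without K-Ras Mll4-/- replicate 1 the count was 7, against 6.35% of all tested genes. Without K-Ras Mll4-/- replicate 2 it was 3, against 3.79%. It was 19 without K-Ras replicate 1, against 11.8%, and 12 without K-Ras replicate 2, against 11%. DESeq2 called 5 of the 38 higher (Mcm2, Mcm5, Mcm6, Rrm2 and Uhrf1), where it called 5.23% of genes with an adjusted p higher. The edgeR likelihood ratio test called 4 of them (all but Mcm5), against 4.85% of tested genes called higher. The limma-voom test called 0 of the 38, and 0% of all tested genes higher, with 16 of the 38 higher at an unadjusted p under 0.05, against 11.5% of all tested genes.

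**Figure D1:**
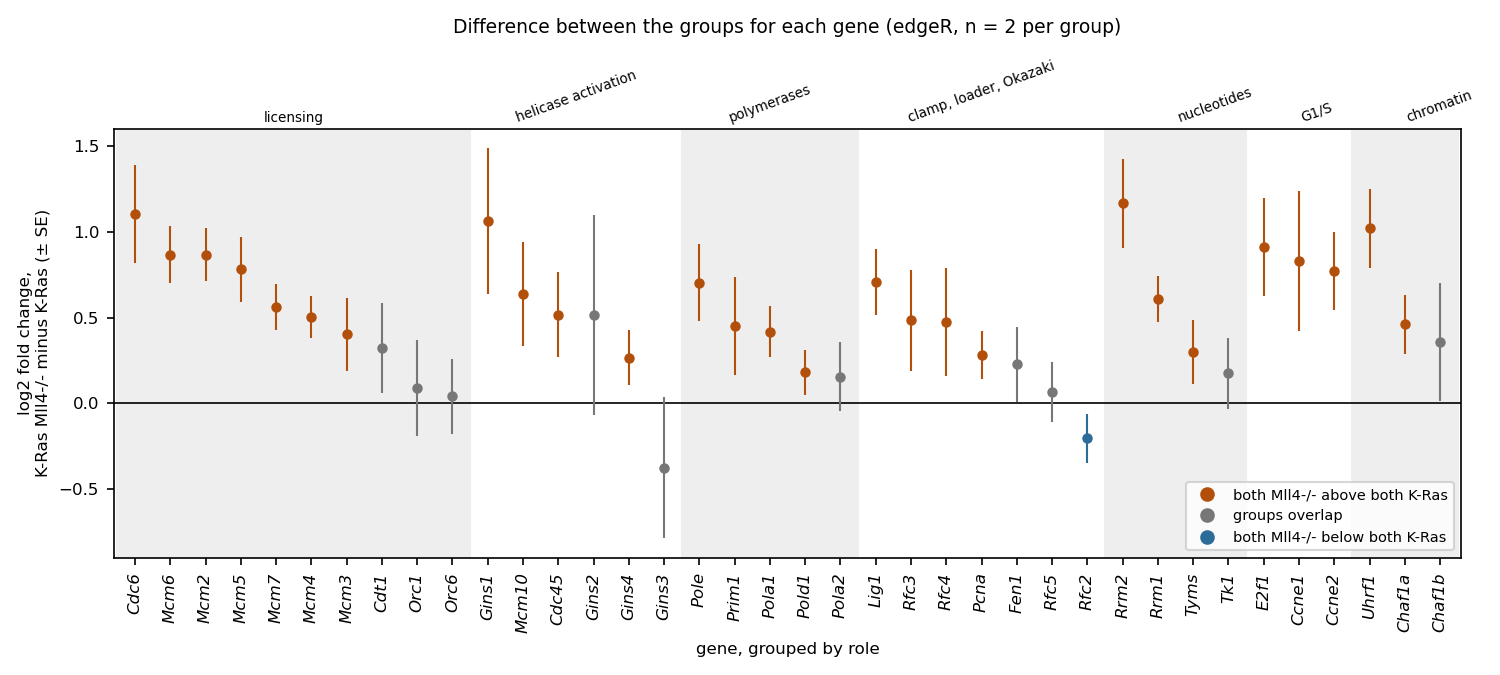
Log2 fold change of each of the 38 genes (vertical axis, K-Ras Mll4-/- minus K-Ras) with its standard error from the edgeR fit, n = 2 per group, genes grouped by role along the horizontal axis. Colours separate the 27 genes with both K-Ras Mll4-/- samples above both K-Ras samples, the 10 with overlapping groups and Rfc2, the 1 gene with the opposite order. Values run from -0.38 for Gins3 to 1.17 for Rrm2.

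The 4 samples were not evenly spread. K-Ras sample 2 had the lowest value for 29 of the 38 genes, and it lay below K-Ras sample 1 for 32 of them. The K-Ras Mll4-/- samples did not stand in a fixed order, with sample 1 the higher for 17 of the 38. The median absolute difference between replicates was 0.24 on the log2 scale in the K-Ras group and 0.19 in the K-Ras Mll4-/- group. The median of 0.48 between groups is of signed differences between fitted group levels, so it is an unlike measure. Without K-Ras replicate 2 the median log2 fold change of the 38 was 0.34, and without K-Ras replicate 1 it was 0.69.

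**Figure D2:**
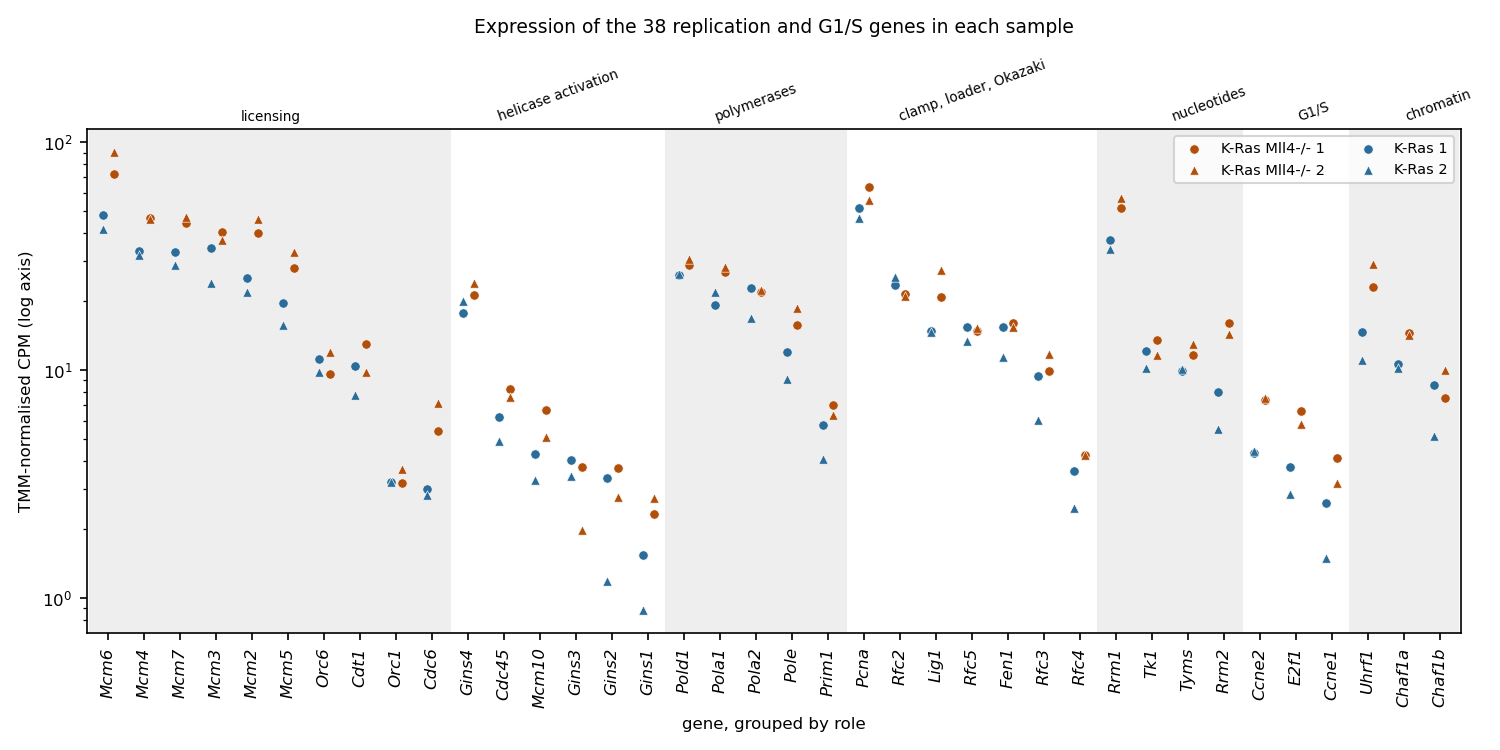
Expression of the 38 genes in every sample, as TMM-normalised CPM on a log axis, grouped by role and ordered by K-Ras level within a role. Blue marks K-Ras and orange K-Ras Mll4-/- samples, with circles for replicate 1 and triangles for replicate 2. Mcm6 reached 90.8 CPM and Gins1 went down to 0.886 CPM.

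The promoters of the 38 genes were described as well, a step set with the design. Many genes of such a list are known to be transcribed under E2F factors. The share below therefore describes the list and not the difference between the groups. RefSeq promoter windows (GRCm38.p6, 250 bases before to 50 after the annotated start) were matched by symbol for 31 of the 38. Windows were not found for Ccne2, Gins1, Gins2, Gins4, Mcm4, Pole and Rfc2. An E2F-type 8-mer, defined as TTTCCCGC, TTTGGCGC, TTTCGCGC or TTTGCCGC on either strand, was present for 13 of 31 genes (41.9%). The same letters were present for 4.14% of the 11917 tested genes with a window and for 2.6% of all 27025 genes in the table. Counted by window, 36.1% of 36 member windows held a match. This was so for 3.43% of the 15028 windows of tested genes and 2.26% of all 32851 windows. Matches can overlap one another, because TTTGGCGC and the reverse complement of TTTCGCGC share 4 letters. The pentamer CCAAT, on either strand, was present for 18 of the 31 genes (58.1%) and 41.9% of tested genes. Of 20 mitosis genes with a window, 1 held the 8-mer (5%) and 17 held CCAAT (85%).

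The promoters below are shown because they carry these letters. Each is the 250 bases before the annotated start, read 5′ to 3′ on the gene's strand, with E2F-type 8-mers on either strand in capitals. Positions count back from the start, so -1 is the base just before it. Cdc6 had the largest fold change among the origin licensing genes with an 8-mer before the start. Uhrf1, Rfc3, Pola1 and Gins3 were each the only gene of their role with an 8-mer there. Lig1 had a larger fold change than Rfc3, but its match lies after the start, at 27. Mcm6 was added after its values were seen, because it held 3 matches, at -110, -106 and -47, of which the first 2 overlap.
Cdc6 (chr11:98907901-98908150, GRCm38.p6, + strand): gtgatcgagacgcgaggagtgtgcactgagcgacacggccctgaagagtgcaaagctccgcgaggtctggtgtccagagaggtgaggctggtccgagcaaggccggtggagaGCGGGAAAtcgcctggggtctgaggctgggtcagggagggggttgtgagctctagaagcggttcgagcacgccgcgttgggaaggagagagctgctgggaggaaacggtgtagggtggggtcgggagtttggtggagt
Mcm6 (chr1:128359706-128359955, GRCm38.p6, - strand): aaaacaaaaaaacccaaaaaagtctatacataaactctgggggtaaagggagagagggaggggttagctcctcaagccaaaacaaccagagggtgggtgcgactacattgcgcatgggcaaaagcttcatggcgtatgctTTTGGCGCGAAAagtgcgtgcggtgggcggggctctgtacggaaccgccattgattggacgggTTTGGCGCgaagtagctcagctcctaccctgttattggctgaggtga
Uhrf1 (chr17:56304063-56304312, GRCm38.p6, + strand): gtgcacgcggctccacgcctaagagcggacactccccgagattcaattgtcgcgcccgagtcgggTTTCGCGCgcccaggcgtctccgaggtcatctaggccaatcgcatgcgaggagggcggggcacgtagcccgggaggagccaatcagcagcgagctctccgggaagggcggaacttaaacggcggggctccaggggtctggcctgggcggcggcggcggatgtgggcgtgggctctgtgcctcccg
Rfc3 (chr5:151651209-151651458, GRCm38.p6, - strand): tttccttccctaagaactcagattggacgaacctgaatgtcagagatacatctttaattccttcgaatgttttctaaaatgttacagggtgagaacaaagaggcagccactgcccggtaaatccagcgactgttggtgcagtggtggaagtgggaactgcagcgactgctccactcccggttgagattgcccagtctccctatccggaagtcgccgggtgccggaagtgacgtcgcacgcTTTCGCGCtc
Pola1 (chrX:93632156-93632405, GRCm38.p6, - strand): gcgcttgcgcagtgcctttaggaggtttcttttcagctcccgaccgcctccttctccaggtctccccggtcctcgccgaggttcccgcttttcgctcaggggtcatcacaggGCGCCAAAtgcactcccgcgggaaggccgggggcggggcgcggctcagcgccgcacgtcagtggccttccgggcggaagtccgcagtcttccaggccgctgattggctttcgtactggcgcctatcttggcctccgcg
Gins3 (chr8:95633309-95633558, GRCm38.p6, + strand): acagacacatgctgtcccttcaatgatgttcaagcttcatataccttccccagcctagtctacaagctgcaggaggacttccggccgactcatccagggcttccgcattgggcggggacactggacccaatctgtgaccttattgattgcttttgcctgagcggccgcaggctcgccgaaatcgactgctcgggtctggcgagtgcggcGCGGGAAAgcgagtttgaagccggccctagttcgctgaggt

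Fold changes were of similar size with and without these letters, a comparison that was not tested. The 13 genes with a match had a median log2 fold change of 0.48, from -0.38 to 1.11, and 10 of them did not overlap between the groups. The 18 genes with a window and no match had a median of 0.45, from 0.04 to 1.17, and 12 of them did not overlap. The genes without overlap were all higher, which held for 29.9% of all tested genes. Gins3, whose promoter is shown above, carries a match at -41 and had a log2 fold change below 0. A match describes the sequence and does not show that a factor binds there.

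**Figure D3:**
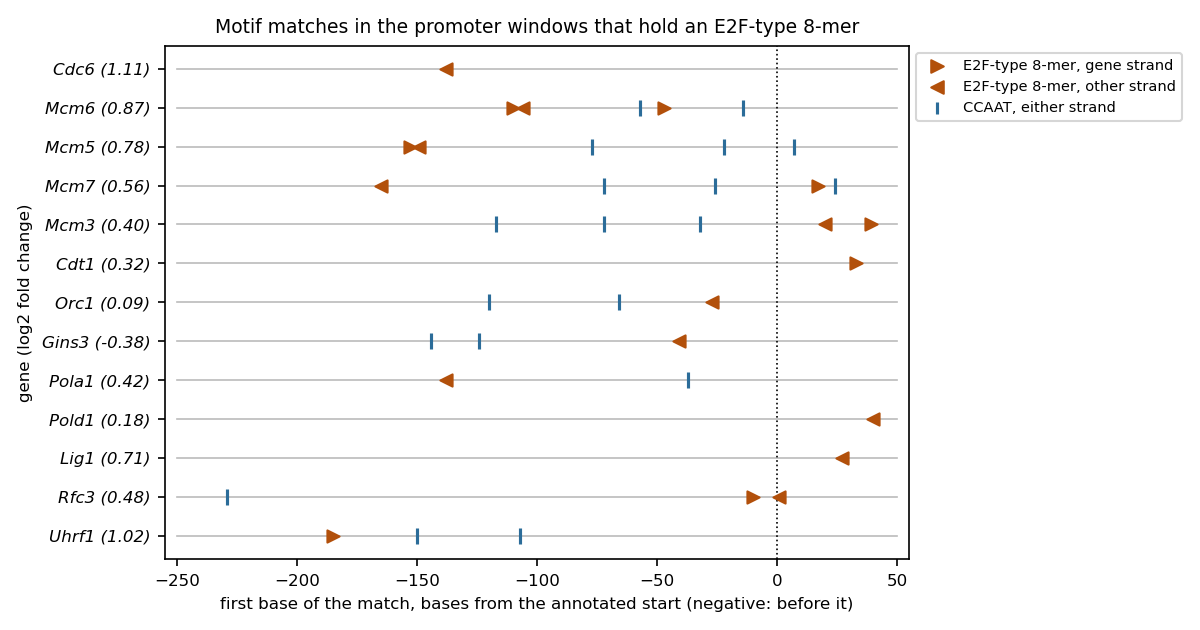
Matches in the promoter window that holds an E2F-type 8-mer, 1 window for each of 13 genes, by distance in bases from the annotated start (horizontal axis, dotted line at the start). Arrowheads are E2F-type 8-mers and point along the strand on which the letters read, and blue bars are CCAAT. The log2 fold change stands beside each gene name, and Mcm6 and Mcm5 each show a pair of overlapping matches.

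Of the 10 origin licensing genes, 7 were higher without overlap, against 29.9% of all tested genes. The median log2 fold change of the 10 was 0.53. MCM2 to MCM7 form the ring that unwinds DNA, and all 6 of their genes were higher in both K-Ras Mll4-/- samples than in both K-Ras samples. Mcm2 was at 25.3 and 22.0 CPM in the K-Ras samples and at 40.03 and 46.1 CPM in the K-Ras Mll4-/- samples (log2 fold change 0.87, SE 0.16, adjusted p = 0.147 by edgeR). Mcm6, another subunit of the ring, was at 47.9 and 41.8 CPM against 72.8 and 90.8 CPM (log2 fold change 0.87, SE 0.17, adjusted p = 0.147 by edgeR). In both genes the gap between the groups was wider than the gap within either group. Mcm5 was at 19.8 and 15.7 CPM against 27.99 and 32.9 CPM (log2 fold change 0.78, SE 0.19). Mcm7 was at 32.8 and 29.0 CPM against 44.3 and 47.0 CPM (log2 fold change 0.56, SE 0.14). The replicates of Mcm4 lay closest together of the 6. It was at 33.1 and 31.96 CPM against 46.5 and 45.8 CPM (log2 fold change 0.50, SE 0.12). Mcm3 had 34.5 and 24.1 CPM against 40.2 and 37.2 CPM (log2 fold change 0.40, SE 0.21). Per kilobase of transcript, the 6 genes spanned 5.24 to 10.4 CPM in K-Ras and 9.003 to 18.8 CPM in K-Ras Mll4-/- tumours.

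The genes that load the ring behaved less uniformly. Cdc6, the ATPase that works with the origin recognition complex, was at 3.01 and 2.82 CPM in the K-Ras samples and 5.41 and 7.14 CPM in the K-Ras Mll4-/- samples (log2 fold change 1.11, SE 0.29, adjusted p = 0.171 by edgeR). Its groups did not overlap. Cdt1, the second loading factor, was at 10.4 and 7.80 CPM against 13.0 and 9.84 CPM, and its groups overlapped (log2 fold change 0.32, SE 0.26). Orc1, the subunit of the origin recognition complex whose abundance changes most through the cell cycle, was at 3.24 and 3.21 CPM against 3.20 and 3.66 CPM. The groups of Orc1 overlapped (log2 fold change 0.09, SE 0.28). Orc6, another subunit, was at 11.2 and 9.80 CPM against 9.56 and 11.98 CPM and overlapped too (log2 fold change 0.04, SE 0.22). The sign for Orc6 turned to -0.02 and -0.01 with upper quartile and total count scaling. Orc2, Orc3, Orc4 and Orc5, which are not among the 38, complete the 6 origin recognition genes. Of these 6, 0 were higher and 1, Orc3, was lower without overlap, against 29.9% and 28.5% of all tested genes. Their log2 fold changes ran from -0.13 to 0.14. The 6 MCM genes ran from 0.40 to 0.87, so the 2 ranges did not meet. These complexes were grouped after the values were seen, and the difference between them was not tested.

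Of the 6 helicase activation genes, 4 were higher without overlap, against 29.9% of all tested genes. The median log2 fold change of the 6 was 0.52. Gins4, which had the most CPM of these 6, was at 17.7 and 20.1 CPM in K-Ras and 21.4 and 24.1 CPM in K-Ras Mll4-/- samples, a log2 fold change of 0.27 (SE 0.16). Gins1, another subunit of the same GINS complex, was at 1.54 and 0.886 CPM against 2.32 and 2.73 CPM (log2 fold change 1.06, SE 0.42, adjusted p = 0.242 by edgeR). Both genes had non-overlapping groups, yet they differed in level and in fold change. Gins2 was at 3.37 and 1.19 CPM against 3.73 and 2.76 CPM, with overlapping groups (log2 fold change 0.51, SE 0.58). Most of the Gins2 transcript used here, 70.7% of its length, lies opposite exons of Gse1, and unstranded counts could not tell the 2 genes apart. Gins3 was at 4.02 and 3.43 CPM against 3.77 and 1.99 CPM, again with overlap (log2 fold change -0.38, SE 0.41). Cdc45, the helicase partner of GINS, was at 6.21 and 4.898 CPM against 8.27 and 7.63 CPM (log2 fold change 0.52, SE 0.25). Mcm10, which is needed for the helicase to start moving, was at 4.28 and 3.29 CPM against 6.70 and 5.09 CPM (log2 fold change 0.64, SE 0.30). Neither of these 2 genes overlapped between groups, and the edgeR adjusted p was 0.297 and 0.294.

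Of the 5 polymerase and primase genes, 4 were higher without overlap, against 29.9% of all tested genes. The median log2 fold change of the 5 was 0.42. Pole, the catalytic subunit of the leading-strand enzyme, was at 12.03 and 9.13 CPM in K-Ras and 15.8 and 18.7 CPM in K-Ras Mll4-/- samples (log2 fold change 0.70, SE 0.22, adjusted p = 0.196 by edgeR). Pold1, the catalytic subunit of the lagging-strand polymerase, was at 26.1 and 26.4 CPM against 28.9 and 30.6 CPM. The groups of Pold1 did not overlap, although the difference was small (log2 fold change 0.18, SE 0.13). Pola1 and Prim1 belong to the primase complex that starts each new strand. Pola1 was at 19.3 and 22.1 CPM against 27.0 and 28.2 CPM (log2 fold change 0.42, SE 0.15). Its groups did not overlap, nor did those of Prim1. Prim1 was at 5.76 and 4.07 CPM against 7.05 and 6.36 CPM (log2 fold change 0.45, SE 0.29). Pola2, a further subunit, was at 23.0 and 17.0 CPM against 22.0 and 22.4 CPM. Its groups overlapped, and its log2 fold change of 0.15 turned to -0.06 without K-Ras replicate 2. With the other subunits added, the 4 polymerase epsilon genes ran from 0.24 to 0.80 and the 4 polymerase delta genes from 0.18 to 0.30.

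Of the 7 genes for the clamp, its loader and fragment joining, 4 were higher and 1 lower without overlap. The shares of all tested genes were 29.9% and 28.5%. The median log2 fold change of the 7 was 0.28. Pcna, the sliding clamp and the gene with the highest level per kilobase of the 38, was at 51.5 and 46.4 CPM in K-Ras and 63.3 and 55.6 CPM in K-Ras Mll4-/- samples. Its log2 fold change was 0.28 (SE 0.14, adjusted p = 0.307 by edgeR), with no overlap between the groups. The loader subunit gene Rfc3 was at 9.45 and 6.06 CPM against 9.90 and 11.8 CPM (log2 fold change 0.48, SE 0.30). Rfc4 was at 3.60 and 2.49 CPM against 4.23 and 4.22 CPM (log2 fold change 0.47, SE 0.32). Neither overlapped between the groups. Rfc5 was at 15.5 and 13.3 CPM against 14.9 and 15.3 CPM and overlapped (log2 fold change 0.07, SE 0.18). Rfc2 was at 23.7 and 25.5 CPM against 21.5 and 21.2 CPM, the 1 gene of the 38 with both K-Ras Mll4-/- samples below both K-Ras samples (log2 fold change -0.21, SE 0.14, adjusted p = 0.439 by edgeR). With Rfc1 included, the 5 subunits of this complex had a median log2 fold change of 0.07.

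Joining of lagging-strand fragments was represented by a ligase and a nuclease. Lig1, the DNA ligase of replication, was at 14.9 and 14.7 CPM in K-Ras and 20.9 and 27.4 CPM in K-Ras Mll4-/- samples (log2 fold change 0.71, SE 0.19, adjusted p = 0.177 by edgeR). Fen1, the flap nuclease that trims the fragments before ligation, was at 15.5 and 11.4 CPM against 16.0 and 15.4 CPM. The groups of Fen1 overlapped, since K-Ras sample 1 lay between the K-Ras Mll4-/- samples, and its log2 fold change was 0.23 (SE 0.22).

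Of the 4 nucleotide supply genes, 3 were higher without overlap, against 29.9% of all tested genes. The median log2 fold change of the 4 was 0.45. Rrm1 and Rrm2 encode ribonucleotide reductase, the enzyme that makes deoxyribonucleotides. Rrm2, its small subunit in dividing cells, was at 8.01 and 5.53 CPM in K-Ras and 16.0 and 14.4 CPM in K-Ras Mll4-/- samples, a factor of 2.25 (log2 fold change 1.17, SE 0.26, adjusted p = 0.157 by edgeR). Its replicates lay closer together than its groups. Rrm1, the large subunit, was at 37.2 and 33.8 CPM against 51.3 and 56.8 CPM (log2 fold change 0.61, SE 0.13, adjusted p = 0.157 by edgeR). The thymidylate enzymes differed less. Tyms, which makes thymidylate, was at 9.94 and 10.1 CPM against 11.7 and 13.0 CPM (log2 fold change 0.30, SE 0.19). Tk1, the salvage thymidine kinase, was at 12.2 and 10.2 CPM against 13.6 and 11.7 CPM and overlapped (log2 fold change 0.17, SE 0.21).

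All 3 regulators of the G1/S transition were higher without overlap between the groups, against 29.9% of all tested genes. E2f1, an activating E2F factor, was at 3.76 and 2.85 CPM in K-Ras and 6.63 and 5.80 CPM in K-Ras Mll4-/- samples (log2 fold change 0.91, SE 0.29, adjusted p = 0.194 by edgeR). The cyclins E1 and E2 activate CDK2 at the entry to S phase. Ccne1 was at 2.62 and 1.49 CPM against 4.11 and 3.20 CPM (log2 fold change 0.83, SE 0.41). Ccne2 was at 4.317 and 4.4 CPM against 7.39 and 7.51 CPM (log2 fold change 0.77, SE 0.23, adjusted p = 0.186 by edgeR). Replicates of Ccne2 agreed most closely of the 3.

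Of the 3 genes for chromatin behind the fork, 2 were higher without overlap, against 29.9% of all tested genes. Uhrf1, which brings the maintenance DNA methyltransferase to newly copied DNA, was at 14.8 and 11.0 CPM in K-Ras and 23.1 and 29.2 CPM in K-Ras Mll4-/- samples (log2 fold change 1.02, SE 0.23, adjusted p = 0.158 by edgeR). Chaf1a and Chaf1b encode subunits of the histone chaperone CAF-1. Chaf1a was at 10.7 and 10.2 CPM against 14.6 and 14.2 CPM (log2 fold change 0.46, SE 0.17), and 48.6% of its transcript lies opposite exons of Ubxn6. Chaf1b was at 8.57 and 5.12 CPM against 7.54 and 9.96 CPM, with overlapping groups (log2 fold change 0.36, SE 0.34).

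Read assignment touches some of these genes. Processed pseudogenes with at least 97% identity cover 72.8% of the Mcm7 transcript, 51.4% of Pcna, 44.3% of Uhrf1 and 11.5% of Tk1, and 11.4% of Tyms has copies within other transcripts. Reads aligning to more than 1 place were not counted to genes. Exons of a protein-coding gene on the opposite strand cover over 10% of 7 of the 38 transcripts, and the strand setting is not given in the sources used here. For the 27 genes with neither a copy nor an overlap above 10% of their length, the median log2 fold change was 0.50. Of these 27, 20 were higher without overlap between the groups, against 29.9% of all tested genes.

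Other genes of the cell cycle were read from 5 lists chosen by function. Without overlap, 29.9% of all tested genes were higher and 28.5% lower. Of 34 further replication genes, 18 were higher without overlap and 1 was lower, with a median log2 fold change of 0.23. The smallest p-value was that of Prim2, the large primase subunit, at 11.4 and 9.74 CPM in K-Ras and 23.6 and 18.1 CPM in K-Ras Mll4-/- samples (log2 fold change 0.98, SE 0.22, adjusted p = 0.157 by edgeR). Of those below 0, it was that of Orc3 (log2 fold change -0.13, SE 0.13, adjusted p = 0.571 by edgeR). Of 10 further nucleotide synthesis genes, 7 were higher without overlap and 0 lower, and their median was 0.58. Impdh2, of guanine nucleotide synthesis, led them with 43.1 and 48.8 CPM against 67.3 and 71.2 CPM (log2 fold change 0.59, SE 0.13). Ctps, the cytidine triphosphate synthase gene, had the smallest p-value of the 2 below 0 (log2 fold change -0.26, SE 0.21). All 12 S-phase chromatin and repair genes were higher without overlap, with a median of 0.48.

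Of the 29 RB-E2F and G1 cyclin-CDK genes, 18 were higher and 4 lower without overlap, against 29.9% and 28.5% of all tested genes. The list held both directions, with a median log2 fold change of 0.29. Ccna2, the cyclin of S phase and G2, had its smallest p-value, at 10.9 and 9.38 CPM in K-Ras and 20.7 and 22.8 CPM in K-Ras Mll4-/- samples (log2 fold change 1.10, SE 0.18, adjusted p = 0.144 by edgeR). Among genes below 0 it was Cdkn2c, an inhibitor of CDK4 and CDK6, at 12.8 and 9.55 CPM against 7.54 and 7.70 CPM (log2 fold change -0.55, SE 0.24, adjusted p = 0.261 by edgeR). The last list held 23 mitosis genes. All 23 were higher without overlap, with a median log2 fold change of 1.17, a factor of 2.26, against 0.48 for the 38 replication genes. Cdk1, the mitotic kinase, led them at 3.53 and 5.26 CPM against 16.5 and 16.8 CPM (log2 fold change 1.92, SE 0.27, adjusted p = 0.135 by edgeR). The quasi-likelihood test of edgeR called 0 of the 108 genes on these 5 lists, and 43 had an unadjusted p under 0.05, all higher. Of all tested genes, 11.4% were higher at that threshold, and 21 of the 43 were mitosis genes. DESeq2 called 24 of the 108 higher, 16 of them mitosis genes, against 5.23% of genes with an adjusted p. The difference in median between the lists was not tested.

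**Figure D4:**
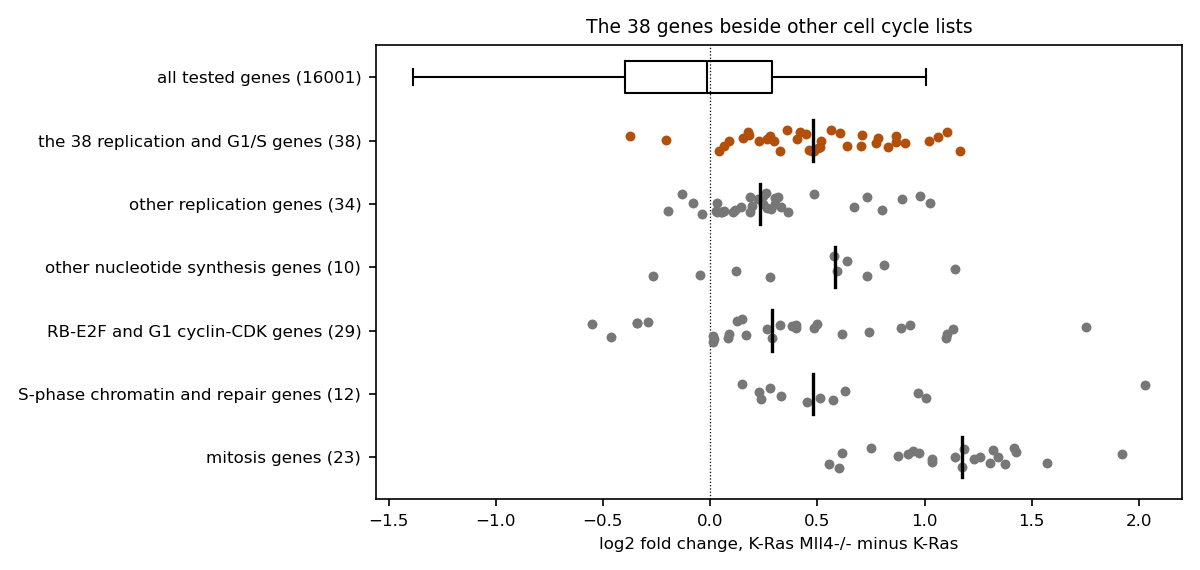
Log2 fold changes (horizontal axis, K-Ras Mll4-/- minus K-Ras) of the 38 genes in orange and of 5 other cell cycle lists in grey, with 1 point per gene and a black bar at each median. The box for all 16001 tested genes spans the quartiles with whiskers at the 5th and 95th percentiles. The median of the 38 is 0.48 and that of the 23 mitosis genes 1.17.

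Some markers of cell types differed between the groups as well, but the quasi-likelihood test of edgeR called 0 on every marker list. The smallest edgeR adjusted p was 0.136 among epithelial, 0.147 among endothelial and 0.135 among fibroblast markers. DESeq2 called 5 of the 6 epithelial markers higher. It called 5 of 7 endothelial, 4 of 6 ciliated, 3 of 5 club and 1 of 6 fibroblast markers lower. The alveolar type 1 list had 1 called higher and 1 lower. The T and NK cell list had 1 higher and the myeloid list 1 lower. Of all 15380 genes with an adjusted p, DESeq2 called 804 higher and 797 lower. The edgeR fit with a replicate block called 1 epithelial and 1 fibroblast marker, against 217 genes in all. Without overlap, 29.9% of all tested genes were higher and 28.5% lower. The 6 epithelial markers summed to 896 and 1526 CPM in the K-Ras samples and to 3176 and 3470 CPM in the K-Ras Mll4-/- samples, and 5 of the 6 were higher without overlap, Nkx2-1 being the exception. Epcam was at 101 and 126 CPM against 182 and 233 CPM. The 7 endothelial markers summed to 6519 and 6253 CPM against 4061 and 3227 CPM, with 5 of 7 lower without overlap, Pecam1 among them at 1360 and 1332 CPM against 944 and 744 CPM. Fibroblast markers summed to 2464 and 1121 CPM against 837 and 850 CPM, with 5 of 6 lower without overlap. The 7 alveolar type 2 markers overlapped in sum, at 18293 and 30107 CPM against 24662 and 26006 CPM, as did the 5 of alveolar type 1, at 1078 and 1442 CPM against 1231 and 1150 CPM. Single alveolar markers went both ways without overlap. In type 2, Sftpb was higher and Sftpa1 lower. In type 1, Aqp5 was higher, and Ager and Cav1 were lower. Club cell markers summed to 1161 and 4753 CPM against 971 and 721 CPM, and ciliated markers to 98.6 and 590 CPM against 54.1 and 60.3 CPM, with K-Ras sample 2 far above the rest in both. Without overlap, 3 of 5 club and all 6 ciliated markers were lower. The part of these differences in the result for the 38 genes was not tested.

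The summed leukocyte marker lists overlapped between the groups, while some single markers did not. Of all tested genes, 29.9% were higher and 28.5% lower without overlap. The 4 pan-leukocyte markers summed to 671 and 310 CPM in K-Ras and 715 and 417 CPM in K-Ras Mll4-/- samples, and Ptprc, which encodes CD45, reached 275 and 143 CPM against 269 and 171 CPM, so its transcripts were present in every sample after depletion. T and NK cell markers summed to 65.5 and 35.2 CPM against 64.1 and 64.9 CPM, with Cd8a and Nkg7 higher and Ncr1 lower without overlap. B cell markers summed to 55.3 and 39.2 CPM against 46.6 and 48.8 CPM, with Ms4a1 higher without overlap. Myeloid markers summed to 5093 and 4423 CPM against 4967 and 3081 CPM, with Itgam lower without overlap, at 63.3 and 26.9 CPM against 17.3 and 13.4 CPM. Of 6 red blood cell markers, 2 passed the filter, summing to 31.8 and 7.11 CPM against 14.7 and 20.7 CPM, and Hba-a1 and Hbb-b2 had 0 reads in all 4 samples. Reads aligning to more than 1 place were not counted, so these 0 counts alone do not show that red blood cells were absent. Alas2, which passed the filter, had 256 to 961 reads per sample.

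**Figure D5:**
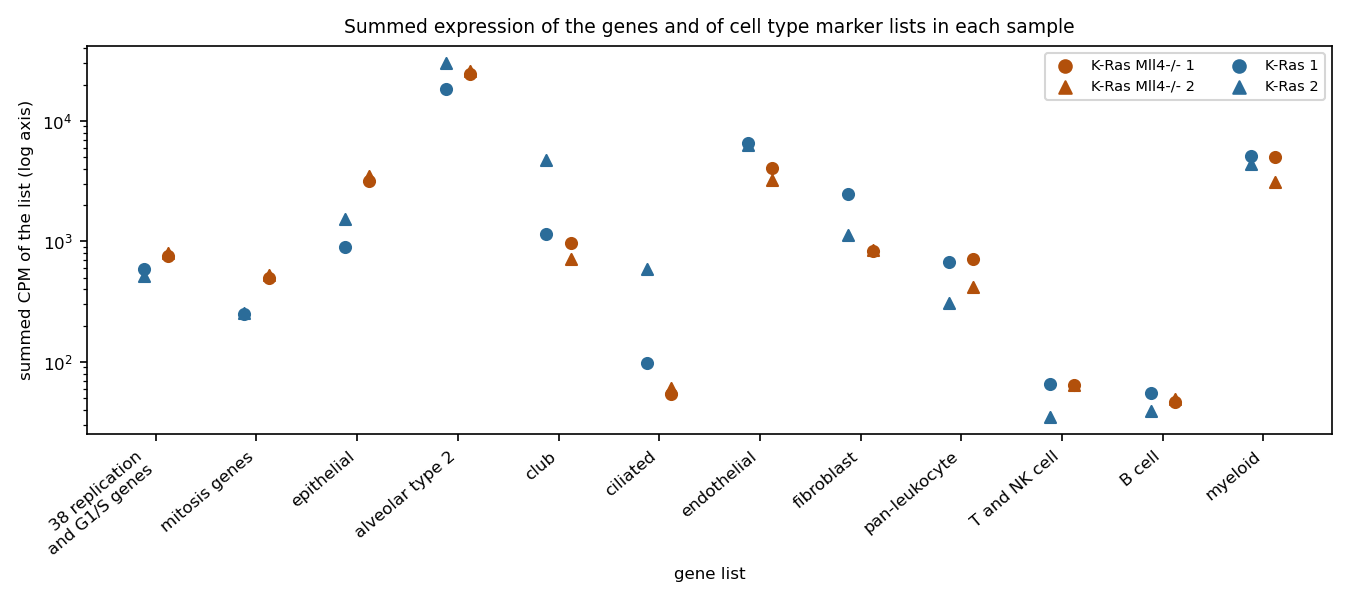
Summed CPM (log axis) of the 38 genes, the mitosis genes and 10 cell type marker lists in each sample, blue for K-Ras and orange for K-Ras Mll4-/-, with circles for replicate 1 and triangles for replicate 2. The 38 genes, the mitosis genes and the epithelial markers are higher, and the endothelial, fibroblast, ciliated and club markers lower, in both K-Ras Mll4-/- samples.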

How the data were processed

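The data were raw read counts per gene symbol, deposited by the authors as 1 HTSeq table per sample. The submitters' processing notes name CASAVA 1.4, STAR, HTSeq and the mm9 build, without settings, and the strand setting is not given in the sources used here. The 5 tally lines that name no gene held 60.1% to 65.6% of all counted reads and were left out. Reads aligning to more than 1 place, 31.5% to 36.7%, are in those lines.

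Groups and replicate numbers came from the sample titles. The 38 genes and all lists were chosen with earlier results of these data known. All 24391 genes entered 1 fit in edgeR 4.0.16 (R 4.3.3), with filterByExpr, TMM scaling and the robust quasi-likelihood test of K-Ras Mll4-/- minus K-Ras. Benjamini-Hochberg adjustment ran over 16001 genes, and a gene was called at an adjusted p under 0.05. The SE of a log2 fold change is its size over the square root of F. The fit was run on simulated counts with changes larger than those of the 38 genes and the same dispersion for every gene. That run does not show how the fit treats changes of the size seen here. Alternatives used DESeq2 1.42.0, limma 3.58.1 and, for GC and length, mgcv 1.9.3.

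Each gene's length, GC content, copies and overlaps refer to its longest GENCODE M21 transcript with a RefSeq entry. Promoters are from RefSeq (GRCm38.p6), which is not the mm9 build of the counts. Printed promoters follow a rule set with the design (per role, the gene with an 8-mer and the largest fold change), limited here to 8-mers before the start, and Mcm6. Every one of the 38 is named. From each of the 5 other cell cycle lists the genes with the smallest p-value above 0 and below 0 are named, except 1 that is not reported here. Of the marker lists, sums and Epcam, Pecam1 and Ptprc are given by rule, and other markers were picked after their values were seen. The complexes were grouped after values were seen.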

Additional observations from a re-analysis of the deposited data

How the results depend on the processing

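Against 6 genes called in all, the count was 2 with GC and length offsets, 44 with no filter, 22 at an adjusted p of 0.1, 1601 with DESeq2, 1503 with the likelihood ratio test, 0 with limma-voom, and 0 to 524 when single samples were left out (a lone sample is then assumed to vary like the other group). The replicate number as a block gave 217, or 118 with GC and length offsets, and called 0 of the 38. Same-numbered samples deviated from their group means with a correlation of 0.24 across genes, and with only 2 pairs the numbers are not taken to pair the samples.

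Of the 38, DESeq2 called 5 and the likelihood ratio test 4, and each of the other alternatives called 0. The other cell cycle lists had 24 calls with DESeq2, 22 with the likelihood ratio test and 0 to 2 with a sample left out. The median of the 38 ranged from 0.34 to 0.69 with a sample left out, and from 0.42 to 0.51 under the other settings run. Signs reversed for 6 of the 38. Orc6 gave -0.02 with upper quartile scaling, -0.01 with total counts, -0.13 with GC and length offsets and -0.14 with the replicate block and these offsets. With a sample left out, Orc6 ranged from -0.14 to 0.19, Orc1 from -0.02 to 0.18, Gins2 from -0.07 to 1.44, Gins3 from -0.91 to 0.00, Pola2 from -0.06 to 0.39 and Rfc5 from -0.05 to 0.18. A further 13 of the 38 kept their sign with a sample left out but moved by over 1.5 times. Ccne1 ranged from 0.46 to 1.29, Cdc45 from 0.34 to 0.70, Cdt1 from 0.11 to 0.54, Chaf1b from 0.02 to 0.77, Fen1 from 0.01 to 0.46, Gins1 from 0.70 to 1.51, Gins4 from 0.17 to 0.35, Mcm3 from 0.15 to 0.68, Pcna from 0.18 to 0.36, Prim1 from 0.20 to 0.72, Rfc3 from 0.18 to 0.84, Rfc4 from 0.22 to 0.76 and Tk1 from 0.04 to 0.31. The share with an E2F-type 8-mer, 41.9%, was 29% before the start only and 32.3% with TTTCCCGC and TTTGGCGC only. Among tested genes these 2 shares were 3.47% and 3.03%. The cause of these shifts was not tested. The alternatives for the other lists were chosen after seeing the data.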
